A study of Mus musculus with 12 samples.

Results

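The mRNAs of the proteasome were followed in colonic epithelial cells of mice with and without epithelial *Tfeb*, before and after injury by dextran sulfate sodium (DSS). Its genes were taken by name, as every *Psma*, *Psmb*, *Psmc* and *Psmd* gene followed by a number, without the immunoproteasome genes *Psmb8*, *Psmb9* and *Psmb10*. The rule found 36 of the 47632 genes of the deposited tables. Of these, 16 belong to the 20S core (8 *Psma* and 8 *Psmb* genes) and 20 to the 19S cap (6 *Psmc* and 14 *Psmd* genes). The name rule also takes *Psmd5*, *Psmd9* and *Psmd10*, whose products help to assemble the cap and are not part of the finished particle.

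The animals were C57/BL6 mice. In *Tfeb* ΔIEC animals, Cre recombinase driven by the villin promoter deletes *Tfeb*, the gene of a transcription factor of lysosome and autophagy genes, in the intestinal epithelium. The controls were *Tfeb* flox/flox littermates, which carry the same floxed alleles without deletion. Each genotype was sampled untreated (Day 0, ages 10 and 12 weeks), at the end of DSS in the drinking water (Day 4, age 12 weeks) and after recovery on plain water (Day 11, age 10 weeks), with 2 animals per group, 6 groups and 12 animals in all. The labels give 2.5% DSS and the methods text gives a slightly lower concentration.

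The proteasome degrades proteins that carry ubiquitin chains. Its 20S core is a barrel of stacked rings, in which α subunits (*Psma*) form the outer gates and β subunits (*Psmb*) the inner chamber, where the products of *Psmb5*, *Psmb6* and *Psmb7* cut the substrate. The 19S cap sits on the end of the barrel. Its ATPase ring (*Psmc*) unfolds the substrate and opens the gate, while its other subunits (*Psmd*) bind ubiquitin chains, remove them and hold the cap together. Since core and cap act as 1 particle, their genes are usually transcribed in step, and the intestinal epithelium, which renews itself rapidly, uses the pathway for protein quality control and for the turnover of signalling proteins.

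The unit is the FPKM, fragments per kilobase of transcript and scaled to library size, so levels can be compared between genes. Each deposited table covers 1 day and holds 1 FPKM value per gene and genotype that the authors made from both animals. It therefore carries no SD, no difference between genotypes has a replicate check here, no test was made from these pooled values, and the number of reads is unknown. The deposited columns of the authors' own test were not used. Fold changes are *Tfeb* ΔIEC over *Tfeb* flox/flox as log2 of FPKM + 1, which understates the change of low genes, for genes that reached 1 FPKM in at least 1 genotype. A gene was counted as lower or higher when it was at least 2-fold apart on that scale. Pairs of FPKM values below give the controls first and *Tfeb* ΔIEC second, in the order of Days 0, 4 and 11. The genotypes differed in more than the proteasome. The FPKM values of a *Tfeb* flox/flox group summed to 1.785 times those of *Tfeb* ΔIEC on Day 4 and 1.781 times on Day 11, against 1.001 on Day 0. Division of each genotype by the sum of its values, given beside many results as another scaling, therefore raises any log2 fold change of these 2 days by up to 0.84 and 0.83. The Day 4 and Day 11 tables were close to each other, with the identical nonzero value in both for 14.3% of the genes of *Tfeb* flox/flox and 10.2% of those of *Tfeb* ΔIEC animals, though for 0 of the 34 proteasome genes above 0. Day 11 is therefore given beside Day 4 and not as a repeat of it. *Tfeb* had 0.901 FPKM in the controls and 0.185 in *Tfeb* ΔIEC on Day 0, 1.08 against a listed 0 on Day 4 and 1.18 against a listed 0 on Day 11. All 8 epithelial marker genes were above 0 in every group, while 8 immune markers summed to between 1.04 and 3.998 FPKM with 3 to 6 of them at 0, and *Cd68*, *S100a9* and the stromal *Col1a2* were at 0 in all 6 groups.

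In the deposited values of Day 4, most core genes were below the control and most cap genes above it. Of the 14 core genes above the filter, 6 were at least 2-fold lower and 0 at least 2-fold higher in *Tfeb* ΔIEC, against 26.1% lower and 25.6% higher among the 9371 genes tested on that day. Of the 20 cap genes, 12 were higher and 0 lower. After subtraction of the trend with transcript length, described further on, 4 core genes were lower and 2 higher, and 8 cap genes were higher. With a pseudocount of 5 in place of 1 FPKM, 5 core genes were lower and 3 cap genes higher. The core had a median log2 fold change of -0.93 (95% binomial interval over genes -1.49 to 0.52) and the cap one of 1.07 (0.44 to 1.39), while the median of all genes was 0.06. The values of Day 11 were near those of Day 4, with 6 of 14 core genes lower and 0 higher, 11 of 20 cap genes higher and 0 lower, and medians of -0.89 (-1.50 to 0.54) and 1.03 (0.50 to 1.42). Among all genes of Day 11, 25.7% were lower and 26.1% higher, with a median of 0.08. In bulk samples, fewer cells of a type and less RNA per cell cannot be told apart.

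Before DSS, the split was smaller, and in the deposited values it lay on the core side. On Day 0, *Psmb3* was the 1 core gene at least 2-fold lower and 0 were higher, while *Psmd2*, *Psmd5* and *Psmd9* were the 3 cap genes that were higher and 0 were lower. Among the 9993 genes tested on Day 0, 16.1% were lower and 13.5% higher, so neither count stood apart from all genes. The core median was -0.82 (-0.97 to -0.08), with 12 of 14 genes below 0, and the cap median was 0.08 (-0.12 to 0.39), beside 0.06 for all genes. After subtraction of the trend with transcript length, described further on, the core median of Day 0 was -0.48 with an interval that spans 0 (-0.80 to 0.18) and 10 of 14 genes below 0. Core minus cap came to -0.91 on Day 0, -1.997 on Day 4 and -1.92 on Day 11 on the log2 scale. The intervals describe the spread between genes and not between animals.

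**Figure D1:**
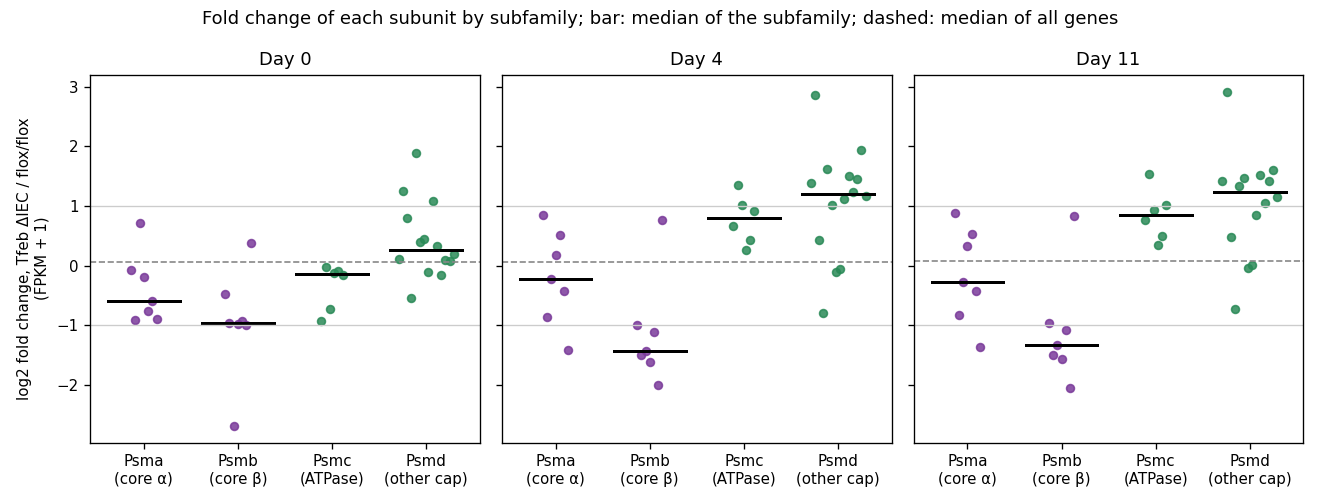
Log2 fold change (FPKM + 1) of each proteasome gene in *Tfeb* ΔIEC over *Tfeb* flox/flox, in 3 panels by day, with 1 point per gene, a black bar for the median of the subfamily, a dashed line for the median of all genes and grey lines at 2-fold. On Day 4 the medians run from -1.44 (*Psmb*) over -0.22 (*Psma*) and 0.79 (*Psmc*) to 1.21 (*Psmd*), and the *Psma* median is 0.41 after division of each genotype by the sum of its values.

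The α ring was mixed. *Psma7* (ENSMUSG00000027566.14, chr2:180036374-180042433 of mm10), the most abundant α gene, had 183 FPKM in the controls and 98.6 in *Tfeb* ΔIEC on Day 0, 342 and 127 on Day 4, and 349 and 136 on Day 11. It was the only α gene at least 2-fold lower as deposited, with log2 fold changes of -0.89, -1.42 and -1.36 on the 3 days. The last 2 were -0.59 and -0.53 after division of each genotype by the sum of its values. After subtraction of the length trend it was within 2-fold, at -0.57, -0.82 and -0.77, and *Psma2* was at least 2-fold lower. *Psma1* went the other way after DSS, with 94.9 and 90.0 FPKM on Day 0, 51.8 and 94.2 on Day 4, and 51.3 and 95.9 on Day 11, and log2 fold changes of -0.08, 0.85 and 0.89. Its value in *Tfeb* ΔIEC lay between 90.0 and 95.9 on all 3 days, whereas the control value was lower on Days 4 and 11 than on Day 0.

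*Psma2* and *Psma6* were lower in the deposited *Tfeb* ΔIEC values of every day without reaching 2-fold. *Psma2* had 55.8 and 29.4 FPKM on Day 0, 65.1 and 35.4 on Day 4, and 62.0 and 34.5 on Day 11, a log2 fold change between -0.90 and -0.83, which was -0.04 and -0.01 on Days 4 and 11 after division by the sum. After subtraction of the length trend it was past 2-fold on the 3 days, at -1.22, -1.56 and -1.58. *Psma6* had 98.4 and 64.7, 68.3 and 50.9, and 66.8 and 49.5 FPKM, with log2 fold changes of -0.60, -0.42 and -0.43, of which the last 2 were 0.41 and 0.39 after the same division. The remaining α genes were less abundant. *Psma4* had 11.9 and 10.4 FPKM on Day 0, 10.7 and 12.3 on Day 4, and 10.8 and 13.8 on Day 11. *Psma3*, with 2.51 and 4.75, 1.78 and 1.39, and 1.67 and 1.20 FPKM, and *Psma5*, with 3.27 and 1.53, 1.57 and 2.68, and 1.50 and 2.63 FPKM, were low, and the order of their deposited values between genotypes turned from Day 0 to Day 4. After division by the sum *Psma3* did not turn, with 0.71, 0.30 and 0.21. *Psma8*, an α gene of the testis, was listed at 0 in all 6 groups.

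Across the 7 expressed α genes the median log2 fold change was -0.60 (Day 0), -0.22 (Day 4) and -0.28 (Day 11). The direction on Days 4 and 11 depended on the scaling, since it was 0.41 and 0.39 after division of each genotype by the sum of its values, and 0.23 and 0.19 after subtraction of the trend with transcript length.

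Most genes of the β ring were lower in the deposited values. Of the 7 expressed β genes, 5 were at least 2-fold lower on Day 4 and on Day 11, namely *Psmb2*, *Psmb3*, *Psmb4*, *Psmb5* and *Psmb6*, against 26.1% and 25.7% of all genes, and *Psmb1* lay just outside with log2 fold changes of -0.996 and -0.955. After division by the sum, 1 β gene was at least 2-fold lower and 1 higher on both days. The shares of all genes were then 15.6% lower and 42.7% higher on Day 4, and 15.2% and 43.1% on Day 11. The subfamily median was -0.96 (Day 0), -1.44 (Day 4, with an interval over genes of -1.99 to 0.77) and -1.33 (Day 11), and it was -0.66 and -0.57 on Days 4 and 11 after division by the sum, and at -0.70 and -0.74 after subtraction of the length trend.

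The 3 catalytic β genes differed in direction. *Psmb6* (ENSMUSG00000018286.6, chr11:70525367-70527858 of mm10), which encodes the caspase-like subunit, had 164 FPKM in the controls and 81.7 in *Tfeb* ΔIEC on Day 0, 257 and 63.9 on Day 4, and 258 and 61.6 on Day 11. Its log2 fold changes of -0.997, -1.99 and -2.05 made it the lowest core gene of Days 4 and 11, and it was lower also after division by the sum, at -1.16 and -1.22. *Psmb5*, the gene of the chymotrypsin-like subunit that proteasome inhibitor drugs bind, had 62.6 and 32.5 FPKM on Day 0, 49.7 and 22.3 on Day 4, and 50.2 and 23.3 on Day 11, with log2 fold changes of -0.92, -1.12 and -1.08. The last 2 were -0.31 and -0.27 after division by the sum, and -0.08 and -0.04 after subtraction of the length trend. *Psmb7*, which encodes the trypsin-like subunit, was higher in *Tfeb* ΔIEC on all 3 days, with 11.1 and 14.7, 6.42 and 11.7, and 6.65 and 12.7 FPKM and log2 fold changes of 0.38, 0.77 and 0.84. Per length, *Psmb7* stood far below *Psmb6* in both genotypes, although 1 copy of each is built into every β ring.

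The structural β genes *Psmb1*, *Psmb2* and *Psmb4* were among the most abundant of the core. *Psmb1* had 177 and 127 FPKM on Day 0, 256 and 128 on Day 4, and 254 and 131 on Day 11. *Psmb2* had 179 and 91.9, 253 and 89.3, and 250 and 87.4 FPKM, with log2 fold changes of -0.96, -1.49 and -1.50. *Psmb4* had 119 and 60.1, 209 and 67.1, and 200 and 67.2 FPKM, with -0.97, -1.62 and -1.56. In these 3 genes the control value was higher on Day 4 than on Day 0, with log2 ratios of 0.53, 0.49 and 0.81, while those of *Tfeb* ΔIEC were 0.01, -0.04 and 0.16. The tables of the days were scaled separately, and after division of each group by its sum the control ratios were -0.05, -0.09 and 0.22 and those of *Tfeb* ΔIEC 0.25, 0.20 and 0.40, so the direction in *Psmb1* and *Psmb2* depended on the scaling. *Psmb3* was low and behaved otherwise, with 11.1 and 0.882 FPKM on Day 0, 19.3 and 6.50 on Day 4, and 17.4 and 6.34 on Day 11. Its Day 0 log2 fold change of -2.68 was the lowest of any proteasome gene on any day and rests on a *Tfeb* ΔIEC value under 1 FPKM. *Psmb11*, the β gene of thymic epithelium, was listed at 0 in all 6 groups.

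**Figure D2:**
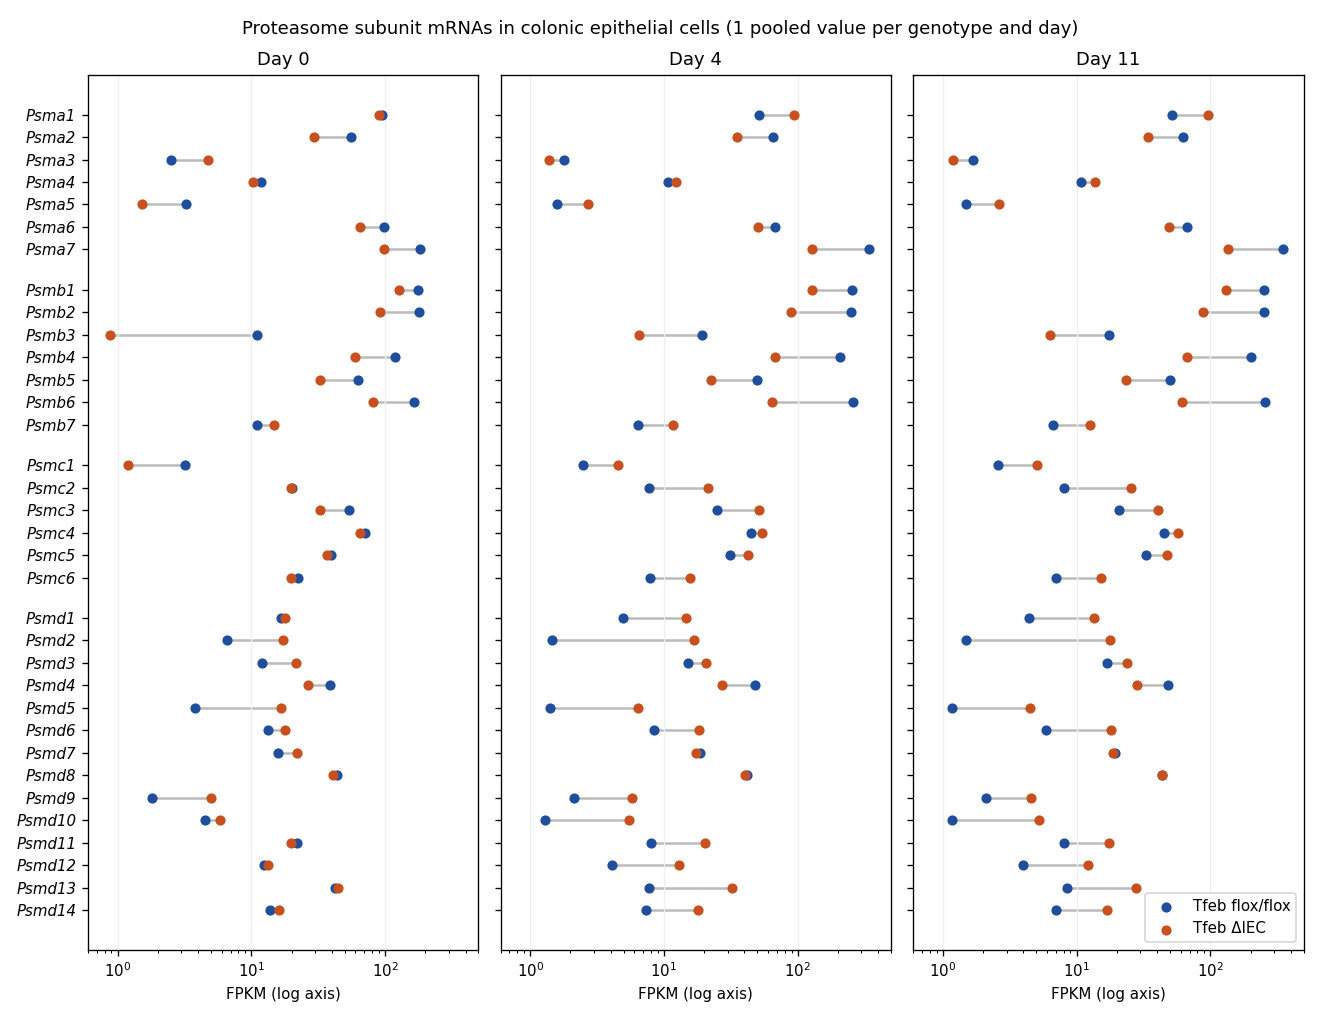
FPKM (log axis) of the 34 proteasome genes above 0, in 3 panels by day, with a blue point for *Tfeb* flox/flox, an orange point for *Tfeb* ΔIEC and a grey line between them, each point 1 pooled value. On Day 4, *Psmb6* lies at 257 against 63.9 and *Psmd2* at 1.47 against 16.9, and most cap genes have the orange point on the right.

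All 6 ATPase genes of the cap were higher in *Tfeb* ΔIEC on Days 4 and 11 as deposited, after division by the sum and after subtraction of the length trend, and all 6 were lower on Day 0. *Psmc2* and *Psmc3* were at least 2-fold higher on Day 4 and *Psmc2* and *Psmc6* on Day 11, beside 25.6% and 26.1% of all genes. After subtraction of the length trend *Psmc2* was at 1.05 and 1.18 on these days. *Psmc3* was then at 0.82 on Day 4 and *Psmc6* at 0.44 on Day 11, both within 2-fold. *Psmc2* (ENSMUSG00000028932.7, chr5:21785283-21803787) had 20.1 FPKM in the controls and 19.7 in *Tfeb* ΔIEC on Day 0, 7.78 and 21.4 on Day 4, and 8.09 and 25.4 on Day 11, log2 fold changes of -0.02, 1.35 and 1.54. Its *Tfeb* ΔIEC values lay between 19.7 and 25.4 on the 3 days, and the control values were lower after DSS than before. *Psmc6* had 22.3 and 19.8, 7.83 and 15.6, and 6.97 and 15.1 FPKM, and its log2 fold change of 0.91 on Day 4 fell just short of 2-fold. *Psmc3* had 54.2 and 32.4, 25.03 and 51.6, and 20.9 and 41.0 FPKM, which turned its log2 fold change from -0.72 on Day 0 to 1.01 and 0.94.

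The ATPase gene with the smallest difference on Days 4 and 11 was *Psmc4*, with 70.7 and 65.0 FPKM on Day 0, 45.1 and 54.4 on Day 4, and 45.2 and 57.7 on Day 11, log2 fold changes of -0.12, 0.26 and 0.35. It was also the most abundant ATPase gene in every group. *Psmc5* had 39.1 and 36.7, 31.4 and 42.6, and 33.2 and 47.4 FPKM, and *Psmc1*, the least abundant, 3.19 and 1.21, 2.46 and 4.53, and 2.59 and 5.08. The ATPase median was -0.14 (Day 0), 0.79 (Day 4) and 0.85 (Day 11).

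*Psmd2* and *Psmd1*, the genes of the large scaffold proteins at the centre of the cap, were both at least 2-fold higher in *Tfeb* ΔIEC on Days 4 and 11. Of all genes, 25.6% and 26.1% were so. *Psmd2* (ENSMUSG00000006998.15, chr16:20651652-20663414) had 6.60 FPKM in the controls and 17.2 in *Tfeb* ΔIEC on Day 0, 1.47 and 16.9 on Day 4, and 1.48 and 17.7 on Day 11. Its log2 fold changes of 1.26, 2.86 and 2.92 were the highest of any proteasome gene on Days 4 and 11, 11.5-fold by ratio on Day 4, and the *Tfeb* ΔIEC values lay within 16.9 to 17.7 throughout. *Psmd1* had 16.6 and 17.9, 4.92 and 14.5, and 4.41 and 13.5 FPKM, with 0.11, 1.39 and 1.42. After subtraction of the length trend *Psmd1* was within 2-fold on Days 4 and 11, at 0.76 and 0.73. *Psmd2* was then at 2.14 and 2.13.

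The lid of the cap, which cuts ubiquitin chains off the substrate, was divided between genes that followed the ATPases and genes that did not. *Psmd14*, the gene of the lid's own deubiquitinase, had 13.9 and 16.1 FPKM on Day 0, 7.41 and 17.9 on Day 4, and 7.05 and 16.9 on Day 11, with log2 fold changes of 0.20, 1.17 and 1.15. *Psmd13* had 42.1 and 44.4, 7.74 and 32.4, and 8.49 and 27.7 FPKM, with 0.07, 1.93 and 1.60, and its control value of Day 4 was the furthest below that of Day 0 among the cap genes, with a log2 ratio of -2.30. *Psmd12*, with 12.4 and 13.3, 4.10 and 13.0, and 3.95 and 12.2 FPKM, and *Psmd11*, with 22.02 and 19.7, 7.97 and 20.2, and 7.98 and 17.5 FPKM, were alike in this respect. Both had nearly equal values on Day 0 and were at least 2-fold higher in *Tfeb* ΔIEC on Days 4 and 11. After subtraction of the length trend *Psmd12* stayed so, at 1.04 and 1.02, while *Psmd11* was at 0.70 and 0.46. *Psmd6* had 13.3 and 17.7, 8.496 and 18.3, and 5.86 and 18.0 FPKM, a log2 fold change of 0.39, 1.02 and 1.47.

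In contrast, *Psmd7*, whose product pairs with that of *Psmd14*, had 15.8 and 21.9 FPKM on Day 0, 18.7 and 17.4 on Day 4, and 19.3 and 18.8 on Day 11. *Psmd8* had 43.9 and 40.9, 42.1 and 40.2, and 43.3 and 43.8 FPKM, and log2 fold changes between -0.10 and 0.02, the smallest differences of any expressed gene over the 3 days. *Psmd3* had 12.0 and 21.6, 15.1 and 20.8, and 16.8 and 23.7 FPKM, with 0.80, 0.44 and 0.47. The deposited control values of these 3 lid genes had log2 ratios of Day 4 to Day 0 of 0.23 (*Psmd7*), -0.06 (*Psmd8*) and 0.31 (*Psmd3*), which became -0.32, -0.63 and -0.23 after division of each group by its sum. Between genotypes, after division by the sum all 3 were higher in *Tfeb* ΔIEC on Days 4 and 11, by 0.69 to 1.27.

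*Psmd4*, the gene of a ubiquitin receptor, stood with the core genes in the deposited values. It had 38.8 FPKM in the controls and 26.4 in *Tfeb* ΔIEC on Day 0, 47.7 and 27.0 on Day 4, and 47.9 and 28.5 on Day 11. It was the 1 cap gene below 0 on all 3 days, at -0.54, -0.80 and -0.73, but at 0.02 and 0.08 on Days 4 and 11 after division by the sum. The 3 assembly chaperone genes were low in the controls. *Psmd5* had 3.79 and 16.6, 1.39 and 6.37, and 1.18 and 4.49 FPKM, *Psmd9* 1.82 and 5.01, 2.11 and 5.74, and 2.09 and 4.58, and *Psmd10* 4.47 and 5.84, 1.29 and 5.48, and 1.18 and 5.24. Without them the cap median was -0.02 (Day 0), 1.01 (Day 4) and 1.02 (Day 11). The median of all 14 *Psmd* genes was 0.26, 1.21 and 1.24.

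How far the core was lower depended on the scaling. Division of each genotype by the sum of its FPKM values moved the median of all genes by 0.70 on Day 4 and 0.69 on Day 11, to 0.75 and 0.77. The core median was then -0.10 and -0.07, with 1 core gene at least 2-fold lower and 3 (Day 4) or 4 (Day 11) higher, while the cap median was 1.81 and 1.79, with 17 of 20 cap genes higher on both days. Of all genes, 15.6% were then lower and 42.7% higher on Day 4, and 15.2% and 43.1% on Day 11. Such a division moves all genes of a genotype by the same factor, so apart from the pseudocount it cannot alter the distance between core and cap, and it is no check of that distance. Gene by gene, 8 core genes were below 0 on Day 4 as deposited, after division by the sum and after subtraction of the length trend, namely *Psma2*, *Psma7* and the 6 β genes other than *Psmb7*. *Psma1*, *Psma4*, *Psma5* and *Psmb7* were above 0 under all 3, as were 16 of the 20 cap genes, and the same 8, 4 and 16 genes were so on Day 11. Of all genes on Day 4, 4808 of 9371 were above 0 as deposited and 6702 of 9701 after division by the sum. *Psma2* was near 0 after that division, at -0.04 on Day 4 and -0.01 on Day 11. *Psmb5* was near 0 after subtraction of the length trend, at -0.08 and -0.04.

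Core and cap genes also differ in transcript length, and in these tables the fold change went with length. The median transcript was 1120 nt for the expressed core genes and 1614 nt for the cap genes, against 1895 nt for all genes tested on Day 4. Across the 34 proteasome genes, Spearman's rho between log2 fold change and length was 0.59 (Day 0), 0.62 (Day 4) and 0.57 (Day 11), and across all genes with a length it was 0.33, 0.37 and 0.37. These are correlations across genes that share the same libraries, and genes are not replicates. In transcripts of 500 to 1000 nt the median of all genes on Day 4 was -1.06 and that of the 5 core genes in this range -1.44, and no cap gene is as short. In transcripts of 1000 to 1500 nt, where both parts have 6 genes, the Day 4 medians were -0.24 for all genes, 0.35 for the core and 0.73 for the cap.

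On Day 4 the few longer core genes lay below the trend. *Psma3* did not on Day 0, when it was 0.55 above it. On Day 4, *Psmb1* and *Psma3*, in the range of 1500 to 2500 nt, had a median of -0.61 against 0.37 for all genes and 0.96 for the 10 cap genes there. *Psma2*, the only core gene between 2500 and 4500 nt, had -0.86 against 0.64 for all genes and 1.51 for 4 cap genes. When the running median over length was subtracted, core minus cap became -0.44 on Day 0, -1.24 on Day 4 and -1.18 on Day 11, with core medians of -0.48, -0.52 and -0.51 and cap medians of -0.04, 0.73 and 0.68. On Day 4 the corrected core interval was -1.25 to 0.65 and the cap interval 0.37 to 1.06.

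**Figure D3:**
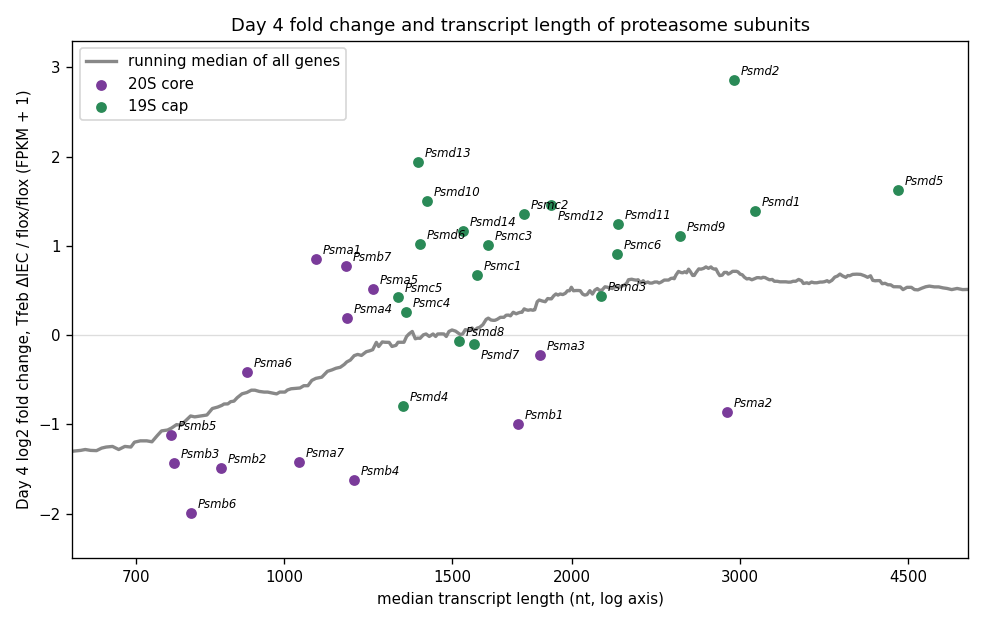
Day 4 log2 fold change (FPKM + 1) of each expressed proteasome gene against its median transcript length (nt, log axis), with core genes in purple, cap genes in green and the running median of all genes as a grey line. *Psmb6* at -1.99 lies lowest and *Psmd2* at 2.86 highest, 16 of 20 cap genes lie above the grey line, and the 14 core genes lie on both sides of it.

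As levels, the core stood above the cap in every group. In *Tfeb* flox/flox animals the median core gene had 78.7 FPKM and the median cap gene 16.2 on Day 0, a ratio of 4.87. The ratio was 7.49 on Day 4 (58.5 and 7.80 FPKM) and 7.54 on Day 11 (56.6 and 7.52 FPKM). In *Tfeb* ΔIEC animals it was 2.35 on Day 0 (46.3 and 19.7 FPKM), 2.39 on Day 4 (43.1 and 18.1 FPKM) and 2.35 on Day 11 (42.0 and 17.9 FPKM). The ratio was thus nearly the same on the 3 days without epithelial *Tfeb* and higher after DSS in the controls. A ratio within a group does not depend on the scaling between tables.

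Within the controls the cap carried the difference between days, in values that were not corrected for transcript length. From Day 0 to Day 4, in tables that were scaled separately, the median log2 ratio in *Tfeb* flox/flox was 0.04 for core genes, -0.91 for cap genes and -0.15 for all genes, and 9 of the 20 cap genes were at least 2-fold lower and 0 higher, against 22.2% and 15.2% of all genes. In *Tfeb* ΔIEC it was 0.04, -0.02 and -0.13, with 1 cap gene lower and 1 higher, against 13.5% and 8.03% of all genes. After division by the sum the control medians were -0.51 for the core, -1.33 for the cap and -0.50 for all genes, and those of *Tfeb* ΔIEC were 0.28, 0.22 and 0.00. From Day 4 to Day 11 no proteasome gene moved as far as 1.5-fold, with FPKM ratios between 0.690 and 1.11 in the controls and between 0.705 and 1.19 in *Tfeb* ΔIEC. All proteasome genes together took 0.167%, 0.129% and 0.127% of the summed FPKM of the controls on the 3 days and 0.120%, 0.141% and 0.141% in *Tfeb* ΔIEC. The order on Day 0 depended on the few most abundant genes. Without the 50 highest genes of each group the shares were 0.451%, 0.324% and 0.320% in the controls and 0.461%, 0.434% and 0.425% in *Tfeb* ΔIEC, so that *Tfeb* ΔIEC was the higher on all 3 days and its share fell over them. Of the whole sum, the cap alone took 0.0469%, 0.0198% and 0.0195% in the controls against 0.0472%, 0.0544% and 0.0538%.

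**Figure D4:**
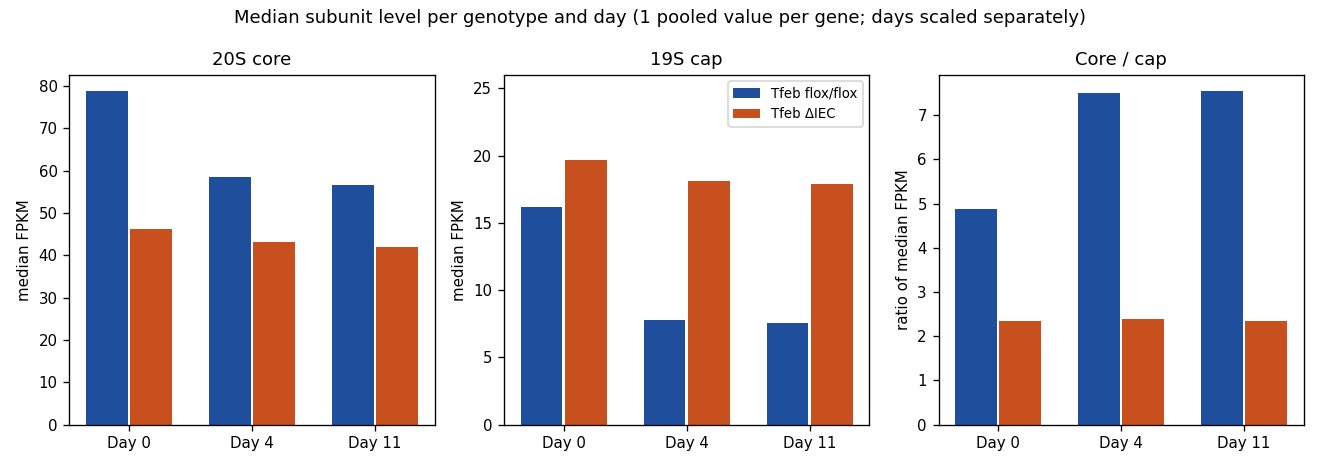
Median FPKM of the 14 expressed core genes, of the 20 cap genes, and their ratio, as bars from 0 for *Tfeb* flox/flox (blue) and *Tfeb* ΔIEC (orange) on Days 0, 4 and 11, without error bars because each gene has 1 pooled value. The cap median of the controls is 16.2 on Day 0 and 7.80 on Day 4, and the ratio in *Tfeb* ΔIEC lies at 2.35 to 2.39.

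The order of the genes by level was largely kept between genotypes, with Spearman's rho of 0.947 on Day 0, 0.880 on Day 4 and 0.898 on Day 11 across the 34 genes. *Psma7* was the highest core gene in all control groups, and *Psmb1* (Days 0 and 4) or *Psma7* (Day 11) in *Tfeb* ΔIEC. *Psmc4* was the highest cap gene on Day 0 and in all *Tfeb* ΔIEC groups, and *Psmd4* in the controls of Days 4 and 11. Core values spread more widely than cap values. The core ran from 1.57 to 342 FPKM and the cap from 1.29 to 47.7 in the controls of Day 4.

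Other cell type markers differed between the genotypes on the same days. The 5 goblet cell genes summed to 13700 FPKM in the controls and 10090 in *Tfeb* ΔIEC on Day 0, 43700 and 8939 on Day 4, and 43280 and 8225 on Day 11, with *Tff3*, *Agr2* and *Fcgbp* lower and *Muc2* and *Clca1* higher in *Tfeb* ΔIEC on Days 4 and 11. Of 8 epithelial genes, *Cdh1* and *Vil1* were at least 2-fold higher in *Tfeb* ΔIEC on Days 4 and 11, and 0 were lower, a share near the 25.6% and 26.1% of all genes. After division by the sum, 5 of the 8 were at least 2-fold higher on both days, beside 42.7% and 43.1% of all genes. *Cdh1* had 38.5 and 109, 24.5 and 164, and 26.5 and 172 FPKM, and *Vil1* 85.4 and 123, 30.6 and 224, and 31.5 and 228. Of 5 colonocyte genes, 3 were at least 2-fold higher on these days and 0 lower, against 0 higher and 2 lower on Day 0, when 16.1% of all genes were lower. Of the small-intestinal enterocyte genes, *Fabp2* (1882 and 891 FPKM) and *Fabp6* (18.8 and 1.74) were at least 2-fold lower on Day 0, as *Fabp6* was on Days 4 and 11, while *Apob* was within 2-fold on Day 0 (0.28) and at least 2-fold higher on Days 4 and 11 (1.06 and 1.09). Of the goblet genes on Day 0, *Tff3* and *Fcgbp* (484 FPKM against a listed 0) were at least 2-fold lower and *Muc2* (1034 and 2744) was higher. The part of these markers in the proteasome values was not tested. The stromal markers summed to between 2.37 and 4.92 FPKM, most of it *Vim*.

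Some genes share sequence with others, and the kit kept no strand. Only 45.9% of the 50-base words in *Psmb5* transcripts and 50.04% in those of *Psma5* were found in no other annotated gene, and 75.1% in *Psmd9*, 82.2% in *Psmb3* and in *Psmd2*, 84.6% in *Psma3*, 85.7% in *Psma4* and 85.9% in *Psmc1*. Exons of *Psma4*, *Psma5*, *Psmb5*, *Psmb7*, *Psmc3*, *Psmd1*, *Psmd3* and *Psmd13* overlap another gene, for example *Nek6* at *Psmb7* and *Sirt3* at *Psmd13*. The values of these genes are therefore less certain. At least 95% of the words were unique, with no overlapping exon, in 8 expressed core genes and 12 cap genes, a limit set after the values were seen. Of these 8 core genes, 7 were below 0 on Day 4 and *Psma1* was above, with a median of -1.21 that was -0.95 after subtraction of the length trend. Of the 12 cap genes, 9 were above 0 and *Psmd4*, *Psmd7* and *Psmd8* below, with a median of 0.97 and, after subtraction, 0.77. On Day 0 all 8 core genes were below 0, and 6 of the 12 cap genes were below and 6 above.

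Promoters were read because core and cap genes are known to share transcription factors and because *Tfeb* was the gene deleted. Sequences of 250 bases before to 50 after the start were matched for 29 of the 36 genes in the RefSeq table of build GRCm38.p6. TCACGTGA, the core of the element that TFEB binds at lysosome genes, was searched on both strands, where it reads the same, and was found in 1.12% of 27025 promoters and in 0 of the 29. CACGTG, the E-box inside it, was in 8.09% of all promoters and in 2 of the 29, *Psma4* and *Psmd9*. TGACNNNGC, the core of the antioxidant response element bound by the factors encoded by *Nfe2l1* and *Nfe2l2*, was in 14% of all promoters and in 5 of the 29 on either strand. CCAAT was in 41.1% of all promoters and in 12 of the 29, 7 of 12 core and 5 of 17 cap promoters. The shares of the 29 promoters were 6.9%, 17.2% and 41.4% for the last 3 motifs, and a match of letters describes a sequence and not a bound site.

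The stretches with an E-box or antioxidant element are shown 5′ to 3′ on the strand of the gene, with the matched letters in capitals, because these motifs are those of the deleted factor's family and of the known proteasome regulators. They lie at chr9:54950709-54950734 (plus strand, *Psma4*), chr5:123228129-123228177 (plus, *Psmd9*), chr14:54618024-54618052 (minus, *Psmb5*), chr11:70525338-70525356 (plus, *Psmb6*), chr14:45329587-45329615 (plus, *Psmc6*) and chr11:107479278-107479299 (plus, *Psmd12*), all upstream of the start.
Psma4: ctgcacagtcCACGTGggcagactga
Psmd9: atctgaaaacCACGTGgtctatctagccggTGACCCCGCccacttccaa
Psmb5: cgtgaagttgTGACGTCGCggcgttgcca
Psmb6: ctaaagagagTGACGGAGC
Psmc6: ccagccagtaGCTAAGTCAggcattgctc
Psmd12: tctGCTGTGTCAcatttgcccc
The genes that hold the antioxidant element lay on both sides on Day 4, with log2 fold changes of -1.12 (*Psmb5*), -1.99 (*Psmb6*), 0.91 (*Psmc6*), 1.12 (*Psmd9*) and 1.45 (*Psmd12*).

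Around the particle, the other genes of the ubiquitin-proteasome pathway lay on both sides, in shares near those of all genes. Of 33 listed genes in the tables, 28 passed the filter on Day 4, of which 8 were at least 2-fold lower and 7 higher in *Tfeb* ΔIEC, beside 26.1% and 25.6% of all genes, with a median of -0.24. On Day 0, 4 of 29 were lower and 3 higher, beside 16.1% and 13.5% of all genes, and on Day 11, 9 of 28 were lower and 7 higher, beside 25.7% and 26.1%. After division by the sum the balance turned, with 5 lower and 10 higher on both days, of 29 genes on Day 4 and 28 on Day 11, and a median of 0.48 and 0.50. The balance of all genes turned likewise, to medians of 0.75 and 0.77. Their shares were then 15.6% lower and 42.7% higher on Day 4, and 15.2% and 43.1% on Day 11. The lists hold 2 further names that are newer symbols of genes counted under the older one.

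Immunoproteasome genes, the interferon-inducible replacements of the catalytic subunits, were all lower. *Psmb8* had 143 and 57.1 FPKM, *Psmb9* 43.2 and 17.4, and *Psmb10* 280 and 86.6 on Day 4, each at least 2-fold lower on Days 4 and 11 and within 2-fold, at -0.43 to -0.85 on the log2 scale, after division by the sum. Of the 5 core assembly factors, 3 were at least 2-fold lower on Day 4, beside 26.1% of all genes. *Pomp*, whose product helps the β ring to close, had 131 FPKM in the controls and 82.0 in *Tfeb* ΔIEC on Day 0, 227 and 62.2 on Day 4, and 196 and 51.2 on Day 11. *Psmg3* (7.33 and 0.669 FPKM on Day 4) and *Psmg4* (32.0 and 3.01) were lower after DSS but not before. On Day 0 *Psmg3* had 2.13 and 2.31 FPKM, and *Psmg4*, with 1.82 and 6.81 and a log2 fold change of 1.47, was at least 2-fold higher in *Tfeb* ΔIEC. On Day 4 *Psmg1* was nearly equal (7.403 and 6.66) and *Psmg2* was low in both (0.677 and 1.81). The assembly list had a median of -1.85 on Day 4, and -1.02 after division by the sum. After that division 3 of its genes were at least 2-fold lower and 1 higher, beside 15.6% and 42.7% of all genes. Subtraction of the length trend left *Pomp* at -1.93, *Psmg3* at -1.41 and *Psmg4* at -1.52 on Day 4. *Psmg1* and *Psmg2* were then above 0, at 0.50 and 0.98.

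Among the other activators, *Psme1* and *Psme2*, which encode the cap that opens the core without ATP, had log2 fold changes of -1.28 and -1.09 on Day 0 and of -0.30 and -0.90 on Day 4 (0.53 and -0.07 after division by the sum). On Day 11 *Psme2* was the 1 gene of this list at least 2-fold lower as deposited, at -1.04, and it was -0.22 after division by the sum. Subtraction of the length trend left *Psme1* and *Psme2* at -0.62 and -0.67 on Day 0, and *Psme2* at -0.36 on Day 11, all within 2-fold. *Psme3*, *Psme4* and the inhibitor gene *Psmf1* had at most 7.93 FPKM. Of the remaining cap proteins, *Shfm1*, the gene of a very small lid protein, had 251 FPKM in the controls and 31.0 in *Tfeb* ΔIEC on Day 4, a log2 fold change of -2.98 that was -2.16 after division by the sum. *Usp14*, the gene of a deubiquitinase that docks on the cap, had 2.03 and 8.49 FPKM and a log2 fold change of 1.65, or 1.05 after subtraction of the length trend. *Adrm1* and *Uchl5* were within 2-fold on Days 4 and 11, and so were the shuttle receptor genes above the filter (*Ubqln1* and *Ubqln4*). On Day 0, *Adrm1* (1.52) and *Ubqln4* (1.04) were at least 2-fold higher in *Tfeb* ΔIEC and *Shfm1* (-1.57) at least 2-fold lower.

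*Rps27a*, a short gene that encodes ubiquitin fused to a ribosomal protein, had 894 FPKM in the controls and 204 in *Tfeb* ΔIEC on Day 4, a log2 fold change of -2.12 that was -1.29 after division by the sum and -0.97 after subtraction of the length trend. *Ubb*, a polyubiquitin gene and the most abundant gene described of the pathway, had 1137 and 656 FPKM, a log2 fold change of -0.79 that was 0.04 after division by the sum. *Uba1*, which activates ubiquitin, had 37.0 and 49.97 FPKM.

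The unfoldase p97 and the regulators of proteasome transcription were on the side of the cap. *Vcp*, the gene of p97, had 9.94 and 13.7 FPKM on Day 0, 0.814 and 12.7 on Day 4, and 0.837 and 13.9 on Day 11. Its cofactor genes *Nsfl1c* and *Ufd1l* were at least 2-fold higher in *Tfeb* ΔIEC on Days 4 and 11, and *Nploc4* was not, at -0.21 and -0.17. *Nfe2l1*, the gene of the factor that restores proteasome synthesis when the proteasome is impaired, had 7.75 and 5.18 FPKM on Day 0, 2.01 and 9.04 on Day 4, and 2.04 and 9.29 on Day 11. *Ngly1*, whose product processes that factor, had 6.20 and 8.44, 1.27 and 9.61, and 1.18 and 9.32 FPKM, and *Nfe2l2*, the gene of its oxidative stress relative, 29.98 and 36.9, 12.4 and 50.2, and 12.2 and 52.6. All 3 were within 2-fold on Day 0 and at least 2-fold higher on Days 4 and 11, and after division by the sum their log2 fold changes on these days lay between 2.41 and 2.86. On these days 25.6% and 26.1% of all genes were at least 2-fold higher as deposited, and 42.7% and 43.1% after division by the sum. Subtraction of the length trend lowered these 3 genes on Day 4, to 1.09 (*Nfe2l1*), 1.34 (*Nfe2l2*) and 1.51 (*Ngly1*), and *Vcp* from 2.92 to 2.32. It left *Ufd1l* within 2-fold, at 0.62 and 0.74 on Days 4 and 11. *Nsfl1c* was then at 1.15 and 1.20, and *Nploc4* at -0.88 and -0.83. The control values of *Vcp*, *Nsfl1c*, *Ufd1l*, *Nfe2l1*, *Nfe2l2* and *Ngly1* were lower on Day 4 than on Day 0.

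**Figure D5:**
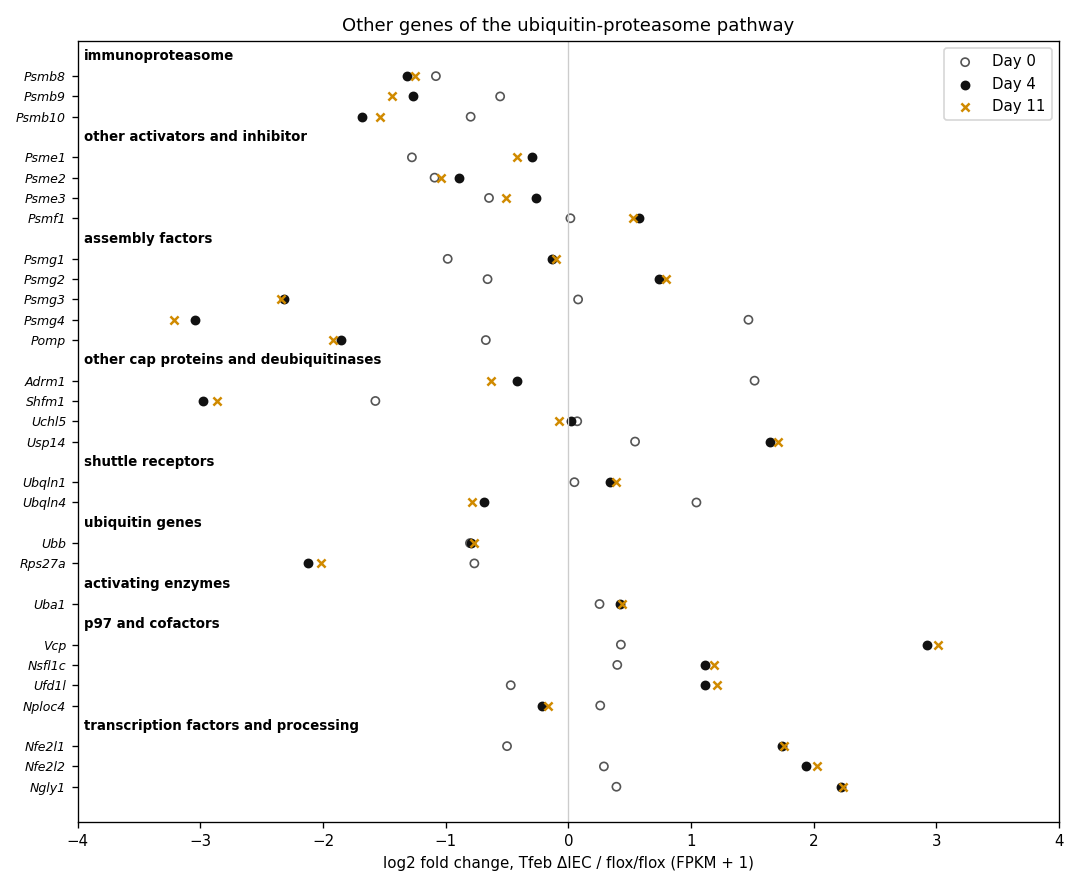
Log2 fold change (FPKM + 1) of the 28 other pathway genes above the filter, grouped by list, with an open circle for Day 0, a filled black circle for Day 4 and a cross for Day 11. *Psmg4* (-3.04) and *Shfm1* (-2.98) lie furthest left and *Vcp* (2.92) furthest right on Day 4, and the immunoproteasome genes lie left of 0 on all 3 days, also after division by the sum.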

How the data were processed

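RNA-seq of colonic epithelial cells was used for 6 groups of 2 mice. The authors' libraries were full-length cDNA (a SmartSeq2 variant) read as pairs on a MiSeq. Per the labels and methods, TopHat2 2.0.14 with Bowtie aligned the reads to mm10, and Cuffdiff 2.1.1 set *Tfeb* ΔIEC against *Tfeb* flox/flox within a day. There are 3 deposited tables of 47632 genes. Each holds 1 FPKM value for either genotype, pooled by the authors over 2 animals and scaled within its day. Their columns of fold changes, test statistics, p-values and q-values hold the study's own comparisons and were not used. The depth is unknown, so no interval that needs it is given.

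Genes were matched by symbol with the pattern given in the report. Log2 fold changes used a pseudocount of 1 FPKM. Genes had to reach 1 FPKM in at least 1 genotype, and a gene was counted past 2-fold on that scale. With pooled values there is no error over animals, and no test was made. Medians carry 95% binomial (order statistic) intervals over genes. Transcript length is the median over the basic transcripts of GENCODE M21 (47218 genes matched). The length trend is a running median over 501 genes of at least 200 nt. Shared sequence was counted as 50-base words of all GENCODE transcripts. Values across days come from tables normalized separately. Promoters are those of RefSeq.

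Every gene under the name rule is accounted for, and values are given for *Tfeb*, the catalytic genes, the lowest and highest gene of each subfamily on Day 4, and the pathway lists. Of the pathway lists, 3 genes are not reported here and were left out of the counts. The genes, lists and alternatives were chosen with earlier results of these data known. The alternatives were another pseudocount, filter or fold limit, division by the sum, centring, subtraction of the length trend, leaving out the chaperone genes, other denominators and the mean of log2 values. Tables were computed with pandas 2.3.3 and numpy 2.4.6 in Python 3.11.15, intervals with scipy 1.17.1 and plots with matplotlib 3.10.9, and the scripts were tested on simulated data.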

Additional observations from a re-analysis of the deposited data

How the results depend on the processing

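Of 222 alternative values, 176 stayed within their range of tolerance and 46 moved beyond it. Some could not move, such as core values without the cap chaperone genes, so these counts do not measure robustness. The range was also wide. Division by the sum took the core median from -0.93 to -0.10 on Day 4 and from -0.89 to -0.07 on Day 11, within it. The sign turned in 2 of the 222 values, both of the Day 0 cap median of 0.08, whose interval over genes spans 0. It was -0.04 after subtraction of the length trend and -0.02 without *Psmd5*, *Psmd9* and *Psmd10*. No paired analysis was possible because the tables hold 1 pooled value per genotype and day, and leaving out 1 animal was not run for the same reason.

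Core minus cap stayed below 0 and within its wide range over genes, but subtraction of the length trend moved it from -0.91 to -0.44 on Day 0, from -1.997 to -1.24 on Day 4 and from -1.92 to -1.18 on Day 11. Division by the sum and centring shift core and cap alike and are no check of it. Division by the sum moved the cap median to 1.81 on Day 4 and 1.79 on Day 11. It also changed the number of core genes past the limit to 1 lower and 3 higher on Day 4 and to 1 lower and 4 higher on Day 11, and that of cap genes higher on Day 11 to 17. Subtraction of the length trend gave 2 core genes lower and 1 cap gene higher on Day 0, 2 core genes higher on Days 4 and 11, and 7 cap genes higher on Day 11. A pseudocount of 0.1 gave 3 core genes and 1 cap gene lower on Day 0. A pseudocount of 5 gave 1, 3 and 4 cap genes higher on Days 0, 4 and 11, since it shrinks the differences of low genes. Centring on all genes gave 4 core genes lower on Day 0, and leaving out the chaperone genes 1 cap gene higher. With 1.5-fold as the limit, 9 core genes were lower and 1 higher and 2 cap genes lower on Day 0, and 2 core genes higher and 1 cap gene lower on Days 4 and 11. With 4-fold, 0 cap genes were higher on Day 0, 0 core genes were lower and 1 cap gene higher on Day 4, and 1 core gene was lower and 1 cap gene higher on Day 11. The shares of all genes at the limits of 1.5-fold and 4-fold are not given, so these counts cannot be set against them.

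Without the 50 highest genes of each group the proteasome took 0.451%, 0.324% and 0.320% of the sum in *Tfeb* flox/flox and 0.461%, 0.434% and 0.425% in *Tfeb* ΔIEC on Days 0, 4 and 11. Over nuclear genes of at least 1 FPKM and 200 nt it took 0.276%, 0.166% and 0.161% in *Tfeb* flox/flox and 0.279%, 0.264% and 0.259% in *Tfeb* ΔIEC on the 3 days. By the mean of log2 values, the ratio of core to cap was 2.63, 4.73 and 4.78 in *Tfeb* flox/flox and 1.45 and 1.53 in *Tfeb* ΔIEC on Days 0 and 4. The cause of the other moves was not tested.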
